A study of Mus musculus with 12 samples.

Results

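Imprinted genes are expressed mainly from the copy inherited from 1 parent, and 39 genes listed by name as imprinted in the mouse were followed here through the first days of embryonic stem (ES) cell differentiation. Of the 39 names, 37 were found among the 28090 gene names on the array, with 73 of its 41174 probes, and Airn and Rtl1 had no probe under those names. A further 2 genes, Slc22a3 and Zim1, had no probe that passed the filter on dim probes, so 35 genes were tested. Genes were listed by name, not by a threshold on their levels, but earlier results of these data were known when the list was made. The arrays measure the summed RNA of both parental copies and cannot tell them apart, so every statement on which copy is expressed is background.

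Total RNA came from ES cells of strain 129, and each of 12 samples was labelled with the dye Cy3 and hybridised to its own Agilent mouse genome array. The 6 groups, with 2 arrays each, were undifferentiated cells (titled LIF, the cytokine that holds mouse ES cells undifferentiated), embryoid bodies (EB, floating aggregates) on days 1, 3 and 4, and monolayer cultures (ML) on days 1 and 3. The labels number the 2 samples of a group as clones, and the design text describes a pair of independent experiments done by different people. Culture media are not given in the sources used here, no genetic change is named, and whether the clones are separate cell lines is not stated, so p-values measure only the spread between these samples.

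At imprinted loci, DNA methylation set in the egg or the sperm marks an imprinting control region, and that mark decides which parental copy of the neighbouring genes is transcribed. The zinc finger protein ZFP57 binds a short methylated motif in such regions and recruits TRIM28 and DNA methyltransferases, which keep the mark through early development. Many members act on growth of the embryo and placenta: as a rule, paternally expressed genes such as Igf2 promote growth, and maternally expressed ones such as Igf2r, Grb10 and Cdkn1c restrain it.

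The following 60-base probes report 5 genes described at length: Igf2 and H19 share a domain, Dlk1 was lower and Magel2 higher on every differentiated array, and Asb4 had the widest range. They are printed 5′ to 3′ as the array design gives them. Positions are those of the files, in mouse build mm9.
Igf2 probe: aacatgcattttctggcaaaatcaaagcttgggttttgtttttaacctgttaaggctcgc
H19 probe: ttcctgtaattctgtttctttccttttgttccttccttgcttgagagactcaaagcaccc
Dlk1 probe: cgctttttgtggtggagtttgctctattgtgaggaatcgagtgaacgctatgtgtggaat
Asb4 probe: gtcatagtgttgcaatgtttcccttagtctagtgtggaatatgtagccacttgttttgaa
Magel2 probe: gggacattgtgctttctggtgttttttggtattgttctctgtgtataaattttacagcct
The Igf2 probe is placed at chr7:149836673-149836709 on the minus strand, which covers 37 of its 60 bases. The H19 probe lies at chr7:149761769-149761828 on the minus strand, the Dlk1 probe at chr12:110698667-110698726 on the plus strand, the Asb4 probe at chr6:5382886-5382945 on the plus strand and the Magel2 probe at chr7:69526159-69526218 on the plus strand.

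Levels below are log2 signals relative to the 75th percentile of all spots on the same array, so 0 is the level of that percentile and a step of 1 is 2-fold. A change is the difference between 2 group means with its standard error (SE) from limma, fitted over 17767 genes, and a gene was called where the adjusted p was under 0.05. Each gene is represented by its brightest probe, and counts of called genes rest on that probe. Arrays were well above background for 34 of the 35 genes on all 12 arrays. The exception, Nap1l5, was not above background in undifferentiated cells and on EB day 4. Undifferentiated samples shared a slide and a scan day, the day 1 and day 3 samples were scanned on another day with EB and ML on separate slides, and EB day 4 had a slide, scan day and scanner of its own. Differences from undifferentiated cells, and from EB day 4, cannot be told apart from differences between slides and scan days, and neither can differences between EB and ML from those between slides, whereas day 3 against day 1 lies within a slide.

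Markers of stage differed between the groups. Pou5f1, which encodes the pluripotency factor OCT4, read 4.60 and 4.73 in undifferentiated cells and 2.24 and 1.64 on EB day 4. T, the mesoderm factor brachyury, read -3.67 and -4.51 in undifferentiated cells, 2.00 and 2.20 on EB day 3 and 1.08 and 0.84 on ML day 3. Sox17, an endoderm factor, rose on EB day 3 (2.76 and 3.68) but read -1.85 and -3.61 on ML day 3, whereas Foxa2, another, rose in both, to 5.50 and 5.15 on EB day 3 and to 1.74 and 1.68 on ML day 3. Both belong to 14 tested extraembryonic endoderm markers. Against undifferentiated cells 4 of these were called higher, 1 lower and 9 not on EB day 3 (median 0.37). On ML day 3, 3 were higher, 2 lower and 9 not called (median -0.10). Of 14 fibroblast markers tested, 8 were lower and none higher on EB day 3 than in undifferentiated cells (median -1.73), and 7 were lower and 2 higher on ML day 3 (median -1.18). Their summed signal was nevertheless highest on ML day 3, at 112 and 158 times the 75th percentile beside 53.8 and 73.4 in undifferentiated cells. The brightest of them there, Tagln, read 6.88 and 6.22, and 3.56 and 4.09 in undifferentiated cells.

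On EB day 1 against undifferentiated cells, 10 of the 35 imprinted genes were called, 7 higher and 3 lower. Of all genes tested, 13.3% were called in that comparison, 7.96% higher and 5.38% lower. ML day 1 against undifferentiated cells gave 12 members, 9 higher and 3 lower, beside 18.0% of all genes (11.6% higher, 6.42% lower). EB day 3 gave 10 members, 7 higher and 3 lower, beside 23.7% (12.9% higher, 10.7% lower), and ML day 3 gave 11, 8 higher and 3 lower, beside 23.5% (12.7% higher, 10.9% lower). These 4 comparisons share the same undifferentiated arrays. The median change of the 35 members was 0.04 on EB day 1, -0.03 on ML day 1, 0.53 on EB day 3 and 0.39 on ML day 3, beside 0.09, 0.13, 0.05 and 0.03 for all genes. Over all comparisons, 23 members were called at least once and 12 never, although other probes of Meg3 and Ppp1r9a, among the 12, were called. The share of all genes called at least once is not given here, so these counts cannot be set against it. The map of levels by array shows the members side by side.

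**Figure D1:**
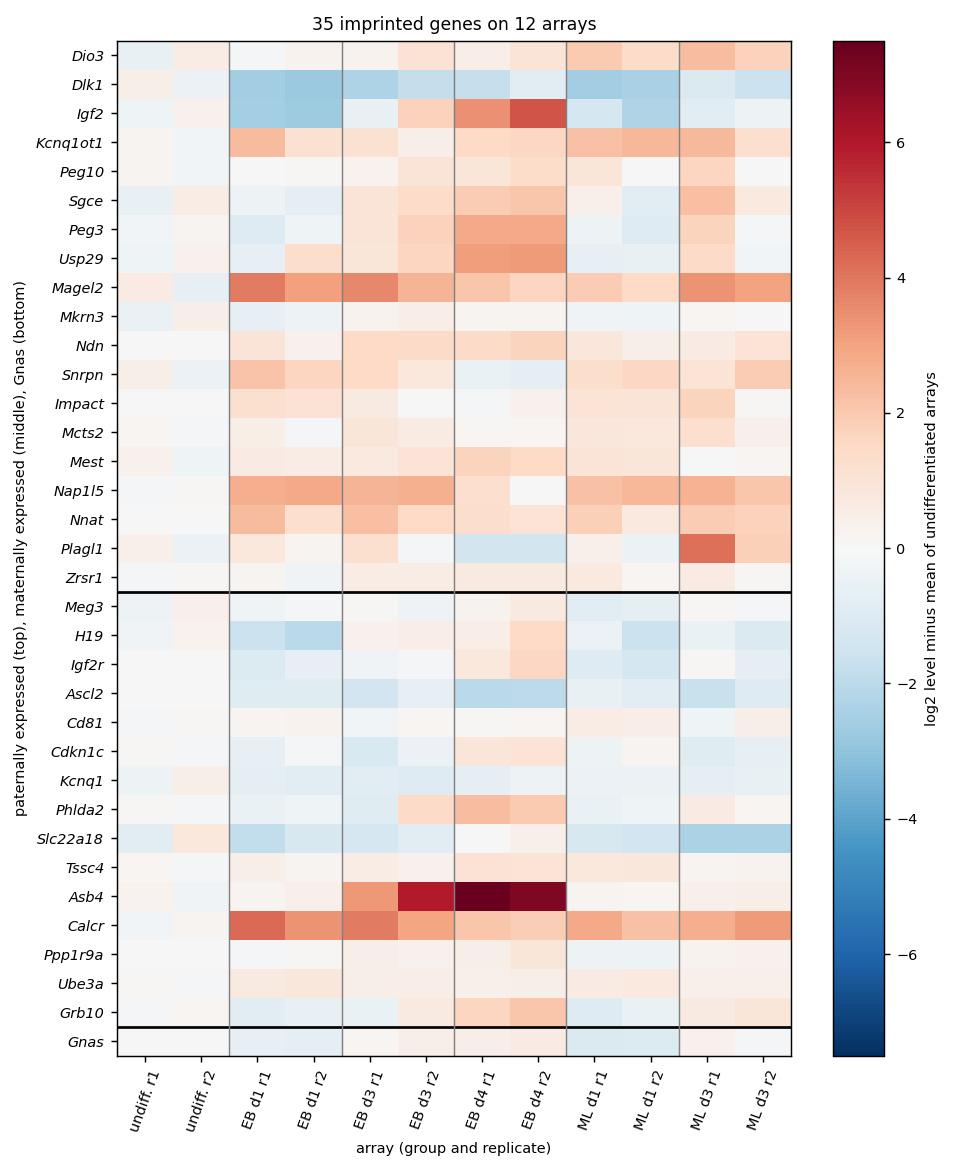
Level of 35 imprinted genes (rows) on 12 arrays (columns, r1 and r2 the replicates of a group), as log2 level minus the mean of the undifferentiated arrays. Calcr, Magel2 and Nnat are red in all differentiated columns, Dlk1 is blue in all of them, and Asb4 and Igf2 are darkest red on EB day 4.

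H19, a maternally expressed long non-coding RNA, and Igf2, a paternally expressed growth factor, share enhancers and an imprinting control region on chromosome 7. Igf2 read 2.08 and 2.69 in undifferentiated cells, -0.18 and -0.31 on EB day 1, 1.80 and 4.10 on EB day 3 and 5.81 and 7.11 on EB day 4, and in monolayer 1.07 and 0.14 on day 1 and 1.53 and 2.03 on day 3. EB day 1 and both monolayer groups lay below the undifferentiated samples, EB day 4 lay above every other array, and EB day 3 overlapped the undifferentiated range. The fall to EB day 1 was -2.63 (SE 0.70, n = 2 per group, limma adjusted p = 0.0391), the rise from EB day 1 to day 3 was 3.19 (SE 0.70, adjusted p = 0.0332) and the rise to EB day 4 was 3.51 (SE 0.70, adjusted p = 0.0157).

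H19, like Igf2, fell to EB day 1 and rose to EB day 3. It read 1.04 and 1.53 in undifferentiated cells, -0.31 and -0.74 on EB day 1, 1.62 and 1.76 on EB day 3, and 1.78 and 2.79 on EB day 4. In monolayer it read 0.85 and -0.33 on day 1 and 0.77 and 0.22 on day 3, so the days overlapped there. H19 fell by 1.80 to EB day 1 (SE 0.45, limma adjusted p = 0.0317) and rose by 2.21 from EB day 1 to day 3 (SE 0.45, adjusted p = 0.0259), whereas its change in monolayer was 0.23 (SE 0.45, adjusted p = 0.756). From EB day 3 to day 4, where Igf2 rose, H19 changed by 0.60 and was not called (adjusted p = 0.404). The difference between those day 3 effects in EB and monolayer was 1.98 and was not called (adjusted p = 0.308). A second probe of each gene gave close values, with changes from EB day 1 to day 3 of 3.12 for Igf2 and 2.40 for H19.

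With 2 arrays in a group, leaving out a single array often ended a call. The group left with 1 array then adds nothing to the estimated spread. A call kept without 1 array of a widely differing pair is therefore no sign of robustness. The fall of Igf2 to EB day 1 lost its call whichever of the 4 arrays was left out (-2.94 to -2.32), and that of H19 kept it only without undifferentiated replicate 1 (-2.05 to -1.56). The rise of H19 to EB day 3 lay between 1.99 and 2.43 without each of the 4 arrays in turn, and none of those fits called it (adjusted p up to 0.188). For Igf2 the same rise was 2.05 without EB day 3 replicate 2 and 4.34 without replicate 1. It was called only in the latter fit. Without EB day 4 replicate 2, or without EB day 3 replicate 1, the rise of Igf2 to EB day 4 lost its call, and its values lay between 2.37 and 4.66.

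Igf2r, a maternally expressed receptor that clears IGF2 from the cell surface, read 2.25 and 2.24 in undifferentiated cells and 1.30 and 0.93 on ML day 1, a fall of 1.13 (SE 0.32, limma adjusted p = 0.0423). On EB day 3 it read 1.99 and 2.10 and on EB day 4 3.06 and 3.80, a rise of 1.38 (SE 0.32, adjusted p = 0.0272). The fall on ML day 1 lost its call whichever of the 4 arrays was left out (-1.32 to -0.94). The rise to EB day 4 kept it only without EB day 4 replicate 1 (1.01 to 1.75). Grb10, a maternally expressed adaptor that dampens insulin and IGF receptor signalling, read 2.56 and 3.72 on EB day 3 and 4.69 and 5.15 on EB day 4, a rise of 1.79 (SE 0.37, adjusted p = 0.0179). In monolayer it rose by 1.54 from day 1 (2.09 and 2.55) to day 3 (3.73 and 4.00; SE 0.37, adjusted p = 0.0281). Its other probes gave 0.64 and 2.24 for EB day 4 against day 3, and 1.18 and 1.64 in monolayer. Without EB day 3 replicate 1 or EB day 4 replicate 2 the EB rise lost its call, with values between 1.21 and 2.36, and the monolayer rise lost its call whichever of its 4 arrays was left out (1.31 to 1.78).

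**Figure D2:**
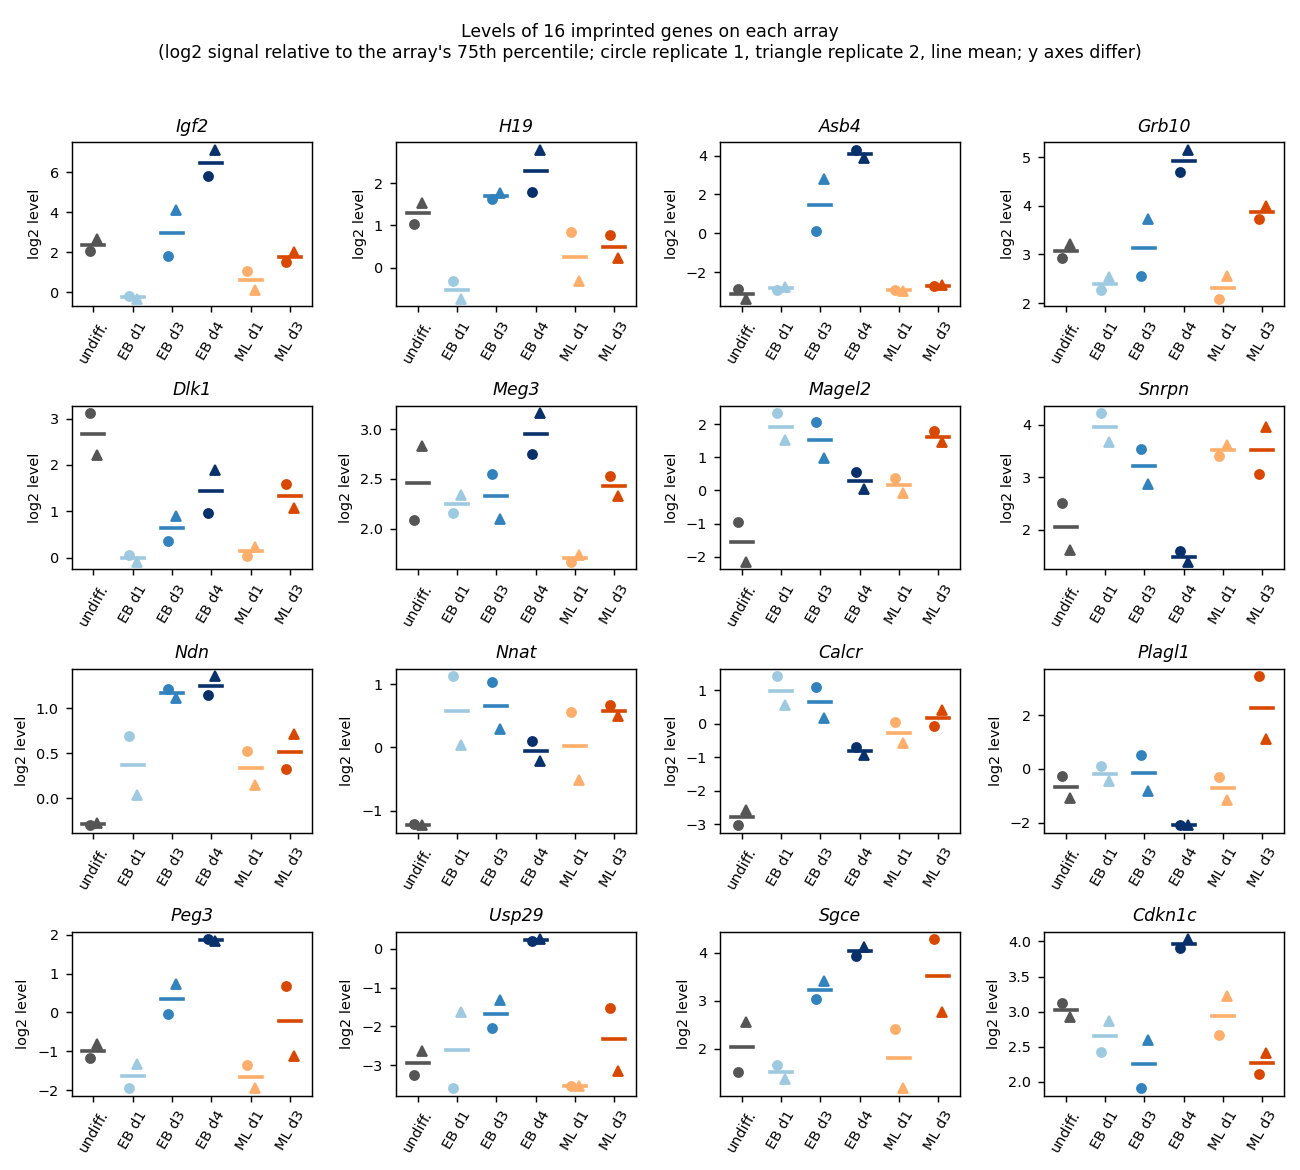
Level of 16 imprinted genes on every array (y axis, log2 signal relative to the array's 75th percentile, axes differ between panels) by group (x axis). Circles are replicate 1, triangles replicate 2 and lines group means. Asb4 lies below -2 outside EB day 3 and day 4, and Peg3 and Usp29 reach their highest level on EB day 4.

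Dlk1, Meg3 and Dio3 belong to a cluster on chromosome 12. Dlk1, a paternally expressed transmembrane relative of the Notch ligands, read 3.12 and 2.22 in undifferentiated cells, and every differentiated array lay below both. It read 0.06 and -0.09 on EB day 1, 0.36 and 0.91 on EB day 3, 0.97 and 1.90 on EB day 4, 0.04 and 0.23 on ML day 1, and 1.59 and 1.08 on ML day 3. It was called lower on EB day 1 (-2.69, SE 0.39, limma adjusted p = 0.00679), ML day 1 (-2.54, adjusted p = 0.00754), EB day 3 (-2.04, adjusted p = 0.00705) and ML day 3 (-1.34, adjusted p = 0.0364), and its second probe gave -2.66, -2.57, -2.16 and -1.36. The EB day 3 call held without each array in turn. The EB day 1 call was lost without either EB day 1 array (adjusted p up to 0.051), the ML day 1 call without ML day 1 replicate 1 (adjusted p = 0.0558), and the ML day 3 call without either ML day 3 array or without undifferentiated replicate 1. Its highest samples were also those in which the median fibroblast marker was high. That median was 0.80 and 0.42 in undifferentiated cells and -1.18 to 0.41 on all other arrays. The summed signal of those markers ran otherwise. It was 73.4 and 53.8 in undifferentiated cells, 83.4 and 85.2 on ML day 1 and 158 and 112 on ML day 3. The part of fibroblast RNA in the result was not tested, and in bulk RNA fewer cells expressing a gene and less RNA per cell cannot be told apart.

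Meg3, the maternally expressed non-coding RNA of the same cluster, was called in no comparison by its brightest probe, which read between 1.67 and 3.16 on the 12 arrays. Its 2 other probes differed from that one: on ML day 3 against undifferentiated cells they gave 1.63 (adjusted p = 0.0310, called) and 1.48 (adjusted p = 0.0735), where the brightest gave -0.03. Rian, another maternally expressed non-coding RNA of the cluster and not among the 39, read -0.12 on both undifferentiated arrays and 1.95 to 2.53 on the 10 others, and was called higher on EB day 1 (2.40, SE 0.20, limma adjusted p = 0.00107) and in the 3 other comparisons with undifferentiated cells. Dio3, a paternally expressed enzyme that inactivates thyroid hormone, read -3.16 and -2.08 in undifferentiated cells, -0.65 and -1.23 on ML day 1 and -0.28 and -0.90 on ML day 3. It rose by 1.68 (SE 0.43, adjusted p = 0.0309) and 2.03 (SE 0.43, adjusted p = 0.0113). The 6 EB arrays read -2.68 to -1.51, below all monolayer arrays, yet EB day 3 against ML day 3 was not called (-1.35, adjusted p = 0.145). The ML day 1 rise of Dio3 lost its call without undifferentiated replicate 1 or either ML day 1 array (1.14 to 2.22), and the ML day 3 rise without undifferentiated replicate 1 or ML day 3 replicate 1 (1.48 to 2.57).

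Around the paternally expressed Snrpn gene on chromosome 7, Snrpn, Magel2 and Ndn were each called higher in at least 1 differentiated group. The maternally expressed Ube3a, an E3 ubiquitin ligase, was higher too. Magel2, a regulator of ubiquitin ligases lost in Prader-Willi syndrome, read -0.95 and -2.16 in undifferentiated cells. On EB it read 2.34 and 1.51 on day 1, 2.08 and 0.97 on day 3 and 0.55 and 0.05 on day 4. In monolayer it read 0.38 and -0.08 on day 1 and 1.79 and 1.46 on day 3. All 10 differentiated arrays lay above both undifferentiated ones. The changes were 3.48 on EB day 1 (SE 0.49, limma adjusted p = 0.00624), 1.70 on ML day 1 (adjusted p = 0.0440), 3.08 on EB day 3 (adjusted p = 0.00329) and 3.18 on ML day 3 (adjusted p = 0.00311). Both day 3 calls held without each array in turn, the EB day 1 call was lost without EB day 1 replicate 1 (adjusted p = 0.0548), and the ML day 1 call was kept only without undifferentiated replicate 1 (1.09 to 2.31).

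Snrpn, a component of the splicing machinery, read 2.51 and 1.61 in undifferentiated cells, 4.22 and 3.67 on EB day 1, 3.53 and 2.88 on EB day 3, 1.59 and 1.39 on EB day 4, 3.41 and 3.61 on ML day 1 and 3.07 and 3.95 on ML day 3. It rose by 1.88 to EB day 1 (SE 0.40, limma adjusted p = 0.0197), by 1.45 on ML day 1 (adjusted p = 0.0368) and by 1.45 on ML day 3 (adjusted p = 0.0292), and fell by 1.71 from EB day 3 to day 4 (SE 0.40, adjusted p = 0.0266). EB day 4 lay below every other differentiated array. Without undifferentiated replicate 2 the 3 rises were 1.43, 1.00 and 1.00 and none was called, and either day 1 array left out also ended the day 1 calls, as did ML day 3 replicate 2 for ML day 3. On leaving out single arrays the fall lay between -2.04 and -1.38 and was called only without EB day 3 replicate 2. Snrpn has 2 probes that overlap on the genome. They are shown because the deposited design gives them different letters at 2 of the 43 shared positions, in capitals, written G9A and A12G with positions counted from 1 at the 5′ end of the first.
Snrpn representative probe: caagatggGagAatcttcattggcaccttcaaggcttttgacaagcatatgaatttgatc
Snrpn other probe: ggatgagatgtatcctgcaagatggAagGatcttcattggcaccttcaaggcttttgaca
The first lies at chr7:67132330-67132389 and the second at chr7:67132347-67132406, both on the minus strand. Both gave the same course, with changes on EB day 1 of 1.88 and 1.85 and from EB day 3 to day 4 of -1.71 and -1.94.

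Ndn, a growth-suppressing relative of Magel2, read -0.30 and -0.28 in undifferentiated cells and 1.22 and 1.12 on EB day 3. That rise of 1.46 (SE 0.26, limma adjusted p = 0.00550) held without each array in turn. Ube3a rose by 0.77 on EB day 1 (SE 0.17, adjusted p = 0.0242) and by 0.68 on ML day 1 (adjusted p = 0.0307). A second Ube3a probe gave 0.73 in both comparisons, while another gave 0.04 and -0.03. Among fits that left out an array, both Ube3a calls were kept only without undifferentiated replicate 1. Both were also lost with quantile normalization, the authors' deposited values, the mean of a gene's probes and a fit of the compared groups alone. Mkrn3 was never called and read between -2.90 and -1.74.

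On chromosome 6, a cluster around Peg10 and Sgce held the member with the widest range. Asb4, maternally expressed and a subunit of ubiquitin ligases, read -2.87 and -3.37 in undifferentiated cells, -2.92 and -2.75 on EB day 1, 0.13 and 2.82 on EB day 3 and 4.30 and 3.86 on EB day 4. All 4 monolayer arrays read between -2.98 and -2.68, so no array outside EB day 3 and day 4 came within 2 units of those groups. It rose by 4.31 from EB day 1 to day 3 (SE 0.67, limma adjusted p = 0.0107) and by 2.60 to day 4 (SE 0.67, adjusted p = 0.0360). On EB day 3 it was 4.18 above ML day 3 (SE 0.67, adjusted p = 0.0143). Its second probe was above background on both EB day 4 arrays (-0.88 and -1.55) and on 1 EB day 3 array (-5.39 and -2.13 on the pair) and on none of the others, so its changes have no exact size. None of those 3 was called with it (adjusted p = 0.0698, 0.0741 and 0.0720). Against undifferentiated cells EB day 3 was higher by 4.60 (adjusted p = 0.00224), and this was called under every alternative tried (3.25 to 5.95 without single arrays). Leaving out EB day 3 replicate 1 took the EB day 3 change against day 1 to 5.66, and leaving out replicate 2 took it to 2.96. Those fits drop the spread of the EB day 3 pair (standard deviation 1.91, the widest for Asb4), so the call kept in them is no sign of robustness. Without either EB day 1 array, which keeps that spread, the call was lost. The rise to EB day 4 lay between 1.25 and 3.95, called only without EB day 3 replicate 2, and the difference from ML day 3 lost its call without ML day 3 replicate 1 (adjusted p = 0.0862).

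Calcr, the calcitonin receptor, read -3.03 and -2.57 in undifferentiated cells and -0.93 to 1.42 on the 10 differentiated arrays, all above them. Its changes were 3.78 on EB day 1 (SE 0.41, limma adjusted p = 0.00249), 2.54 on ML day 1, 3.44 on EB day 3 and 2.98 on ML day 3. The first and the last 2 were called under every alternative tried, and the ML day 1 call was lost without ML day 1 replicate 1 (adjusted p = 0.0605). A second Calcr probe was not above background in undifferentiated cells or on ML day 1, so its changes have no exact size, and of the 4 comparisons it was called only on EB day 1 (adjusted p = 0.0239). From EB day 3 (1.11 and 0.17) to day 4 (-0.70 and -0.93) Calcr fell by 1.45 (SE 0.41, adjusted p = 0.0477), with -1.92 to -0.99 when single arrays were left out, called only without EB day 3 replicate 2. Sgce, a paternally expressed sarcoglycan, was not called: it read 1.67 and 1.38 on EB day 1, 3.03 and 3.41 on EB day 3 and 3.93 and 4.13 on EB day 4 (day 3 against day 1 1.69, adjusted p = 0.125). Peg10, derived from a retrotransposon, and Ppp1r9a, a cytoskeletal protein, were never called by their brightest probes, which read between -3.49 and -1.69 and between -0.45 and 0.82. A second Ppp1r9a probe, above background on all arrays, was called lower on EB day 1 (-0.97, adjusted p = 0.0388), EB day 3 (-0.94, adjusted p = 0.0296) and ML day 3 (-1.25, adjusted p = 0.00984) against undifferentiated cells. From ML day 1 to day 3 it gave -0.96 (adjusted p = 0.0451), where the brightest gave 0.68 (adjusted p = 0.0678 in the same fit over probes), so the 2 probes ran in opposite directions.

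The Kcnq1 cluster on chromosome 7 has the paternally expressed non-coding RNA Kcnq1ot1, which silences its neighbours on the same chromosome copy. Kcnq1ot1 read -2.46 and -2.87 in undifferentiated cells and -2.24 to -0.20 on the other arrays. It rose by 1.75 on EB day 1 (SE 0.49, limma adjusted p = 0.0447), by 2.31 on ML day 1 (adjusted p = 0.0171) and by 1.81 on ML day 3 (adjusted p = 0.0270). These values rest on the only Kcnq1ot1 probe that passed the filter. Another was above background on single arrays of undifferentiated cells, EB day 4 and ML day 3, and the rest on no array. The EB day 1 call was lost whichever of the 4 arrays was left out (1.14 to 2.37), the ML day 1 call without either ML day 1 array or undifferentiated replicate 2, and the ML day 3 call without ML day 3 replicate 1 or either undifferentiated array (1.18 to 2.43).

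Its maternally expressed neighbours differed among themselves. Cdkn1c, the cell cycle inhibitor p57, read 1.91 and 2.60 on EB day 3 and 3.91 and 4.03 on EB day 4, a rise of 1.71 (SE 0.30, limma adjusted p = 0.00999), and it lost its call without EB day 3 replicate 1 or without EB day 4 replicate 2, with an adjusted p of at most 0.0784. Phlda2, which limits placental growth, read 3.98 and 6.34 on EB day 3 and 7.25 and 6.88 on EB day 4 and was not called (1.90, SE 0.60, adjusted p = 0.0673). Ascl2, a trophoblast transcription factor, read -1.65 and -1.66 in undifferentiated cells and -3.70 to -2.19 elsewhere. It was called lower on EB day 3 (-1.03, adjusted p = 0.0409, and -1.43 to -0.63 without single arrays) and ML day 3 (-1.30, adjusted p = 0.0167, and -1.66 to -0.95). Either undifferentiated array left out, or replicate 1 of the day 3 group, ended these calls. Slc22a18, an organic cation transporter, read -0.94 and 0.68 in undifferentiated cells and -2.51 and -2.49 on ML day 3, a fall of 2.37 (SE 0.46, adjusted p = 0.00772), which was -1.56 without undifferentiated replicate 2. Its second probe gave -0.24 and was not called. The potassium channel gene Kcnq1 changed by -0.87 on EB day 3 (adjusted p = 0.0445), and -0.46 without undifferentiated replicate 2, where it was not called; leaving out either EB day 3 array also ended the call. Tssc4 rose by 0.82 on ML day 1 (adjusted p = 0.0258), called without undifferentiated replicate 1 but in none of the other 3 fits that left out an array (0.66 to 0.98). Cd81, a tetraspanin, was never called and read between 4.82 and 5.69.

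Peg3, a paternally expressed zinc finger protein, and Usp29, a paternally expressed deubiquitinase, are transcribed in opposite directions from a shared promoter region. Peg3 read -1.18 and -0.80 in undifferentiated cells, -1.94 and -1.32 on EB day 1, -0.03 and 0.72 on EB day 3 and 1.88 and 1.84 on EB day 4. Usp29 read -3.26 and -2.63, -3.59 and -1.62, -2.05 and -1.31, and 0.19 and 0.24 in those groups. For both genes EB day 4 lay above every other array. Neither was called for EB day 4 against day 3 (Peg3 1.51, SE 0.53, limma adjusted p = 0.0921, and Usp29 1.89, SE 0.66, adjusted p = 0.0894). In monolayer Peg3 read -1.36 and -1.95 on day 1 and 0.68 and -1.11 on day 3, and Usp29 read -3.54 and -3.52 and then -1.52 and -3.14.

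The promoter window of Usp29, from 250 bases before to 50 after the RefSeq start (build GRCm38.p6), is shown with the 263 bases it shares with the window of Peg3 in capitals. It lies at chr7:6730333-6730632 on the plus strand. The window of Plagl1, which takes a different course, is shown beside it with the letters of the ZFP57 motif in capitals and lies at chr10:13090582-13090881 on the plus strand.
Usp29 promoter: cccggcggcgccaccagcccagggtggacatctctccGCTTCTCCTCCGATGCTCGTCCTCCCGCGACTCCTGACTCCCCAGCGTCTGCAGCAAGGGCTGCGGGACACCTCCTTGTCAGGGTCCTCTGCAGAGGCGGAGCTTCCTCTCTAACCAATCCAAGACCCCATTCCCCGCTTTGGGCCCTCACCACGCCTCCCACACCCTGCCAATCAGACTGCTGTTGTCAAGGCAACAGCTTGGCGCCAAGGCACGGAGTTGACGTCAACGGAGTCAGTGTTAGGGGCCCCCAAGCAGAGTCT
Plagl1 promoter: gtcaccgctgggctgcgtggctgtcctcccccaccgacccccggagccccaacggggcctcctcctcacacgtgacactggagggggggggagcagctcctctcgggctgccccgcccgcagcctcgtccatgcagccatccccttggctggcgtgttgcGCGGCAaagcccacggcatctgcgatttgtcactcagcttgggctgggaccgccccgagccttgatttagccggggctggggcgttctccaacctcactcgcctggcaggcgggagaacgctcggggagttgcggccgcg
The motif searched was TGCCGC on both strands, so GCGGCA on the printed strand is the same motif. Of 48 windows for 32 members in the RefSeq table, 12 held it (25.0%), beside 3813 of all 32851 windows (11.6%). Member windows also held more CpG dinucleotides, with a median of 14.5 beside 7, and the motif itself contains a CpG. The windows of Peg3 and Usp29 did not hold these letters. Matches describe the letters only, since no binding or methylation was measured.

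Plagl1, a paternally expressed zinc finger factor that slows the cell cycle, read -0.28 and -1.10 in undifferentiated cells, -0.30 and -1.14 on ML day 1 and 3.45 and 1.1 on ML day 3, and EB day 4 was lowest of all groups at -2.09 on both arrays. The rise in monolayer was 3.00 (SE 0.72, limma adjusted p = 0.0282). Its second probe, above background on 1 of the 2 ML day 1 arrays, gave 1.86. The rise of the brightest probe was 1.82 without ML day 3 replicate 1 and 4.17 without replicate 2, and it was called only in the latter fit, since leaving out either ML day 1 array also ended the call (adjusted p up to 0.193). EB day 3 against ML day 3 was not called by the brightest probe (-2.44, adjusted p = 0.113) but was by the second (-1.84, adjusted p = 0.0481).

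Of the other paternally expressed members, Nnat, a small membrane protein of neural tissue, read -1.22 and -1.23 in undifferentiated cells and -0.51 to 1.13 on all other arrays. It rose by 1.81 on EB day 1 (SE 0.44, limma adjusted p = 0.0298), 1.89 on EB day 3 and 1.81 on ML day 3. Its EB day 1 call was lost whichever array was left out (1.27 to 2.36), and the others without either undifferentiated array or replicate 1 of the day 3 group. Nap1l5, a nucleosome assembly protein relative, was not above background in undifferentiated cells (-6.52 and -6.30) and read -4.34 to -3.59 on the 8 day 1 and day 3 arrays. Against the lowest signal above background it was at least 4.11-fold higher on EB day 1, 3.03-fold on ML day 1, 3.68-fold on EB day 3 and 3.04-fold on ML day 3. The ML day 1 call was lost without either ML day 1 array (adjusted p up to 0.0679), and the other 3 held without each array. With normexp background correction the EB day 1 rise was 0.67 and called, while those on EB day 3 (0.45, adjusted p = 0.0501) and ML day 3 (0.44, adjusted p = 0.0522) were not. On EB day 4, where it was not above background (-5.15 and -6.44), it was at least 1.39-fold lower than on EB day 3 (adjusted p = 0.0128). That call was lost without EB day 3 replicate 1 or EB day 4 replicate 2 (log2 changes of -2.06 and -1.35), and with normexp background correction, where the change was -0.09. Mest, a hydrolase-like protein of mesoderm, rose by 0.93 on ML day 1 (SE 0.24, adjusted p = 0.0321) and fell by 0.88 to ML day 3 (adjusted p = 0.0466). The rise was called without undifferentiated replicate 1 only (0.60 to 1.26), and the fall without ML day 3 replicate 2 only (-0.95 to -0.81). On EB it went from 4.77 and 4.70 on day 1 to 4.88 and 5.18 on day 3, and the difference between the EB and ML effects, 1.17, was not called (adjusted p = 0.267).

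Impact, Zrsr1 and Mcts2 were never called, with ranges of 3.90 to 5.67, -0.40 to 0.61 and 2.45 to 3.82. Gnas encodes the stimulatory G protein subunit along with other transcripts expressed from either parental copy. Of its 8 probes 3 passed the filter, and those that the array describes as XLalphas or neuroendocrine-specific Golgi protein p55 transcripts did not. Its brightest probe read 2.74 and 2.76 in undifferentiated cells, 2.12 and 2.02 on EB day 1, 2.87 and 3.20 on EB day 3, 1.67 and 1.70 on ML day 1 and 3.10 and 2.64 on ML day 3. The rise from day 1 to day 3 was 0.96 in EB (SE 0.22, limma adjusted p = 0.0364) and 1.19 in monolayer (SE 0.22, adjusted p = 0.0103), with no overlap of the days in either format. Another coding probe gave 1.01 and 1.07, both called, and a probe for a non-coding RNA over exon 1A was above background on none of the arrays of either day 1 group or of ML day 3 and so gives no change. Both gene-level calls were lost without either day 1 array, and the EB call also without EB day 3 replicate 2. Against undifferentiated cells Gnas was 1.06 lower on ML day 1 on the log2 scale (change -1.06, adjusted p = 0.0157), which was called without undifferentiated replicate 1 only among fits that left out an array.

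Within the slides, 4 of 35 members were called between day 1 and day 3 in EB, namely Asb4, Igf2, H19 and Gnas, all higher, beside 5.41% of all genes (3.08% higher, 2.33% lower). In monolayer 4 were called, Plagl1, Grb10 and Gnas higher and Mest lower, beside 12.4% (5.77% higher, 6.65% lower). EB day 4 against day 3 gave 8 members, 5 higher (Igf2, Asb4, Grb10, Cdkn1c and Igf2r) and 3 lower (Nap1l5, Snrpn and Calcr), beside 12.6% (3.85% higher, 8.80% lower). The median change of all 35 was 0.49, 0.34 and 0.36, beside -0.08, -0.14 and -0.09 for all genes. No member differed between EB and monolayer on day 1, beside 0.0675% of all genes, although 4 had an unadjusted p under 0.05. On day 3 only Asb4 was called, beside 3.29%, and EB and ML were on different slides. The day 3 effect differed between formats for no member (7 with an unadjusted p under 0.05), beside 0.242%. The EB samples also had more mesoderm signal: the summed level of 12 mesoderm markers was 28.6 and 72.4 on EB day 3 and 7.17 and 7.03 on ML day 3. Their part in the Asb4 difference was not tested.

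**Figure D3:**
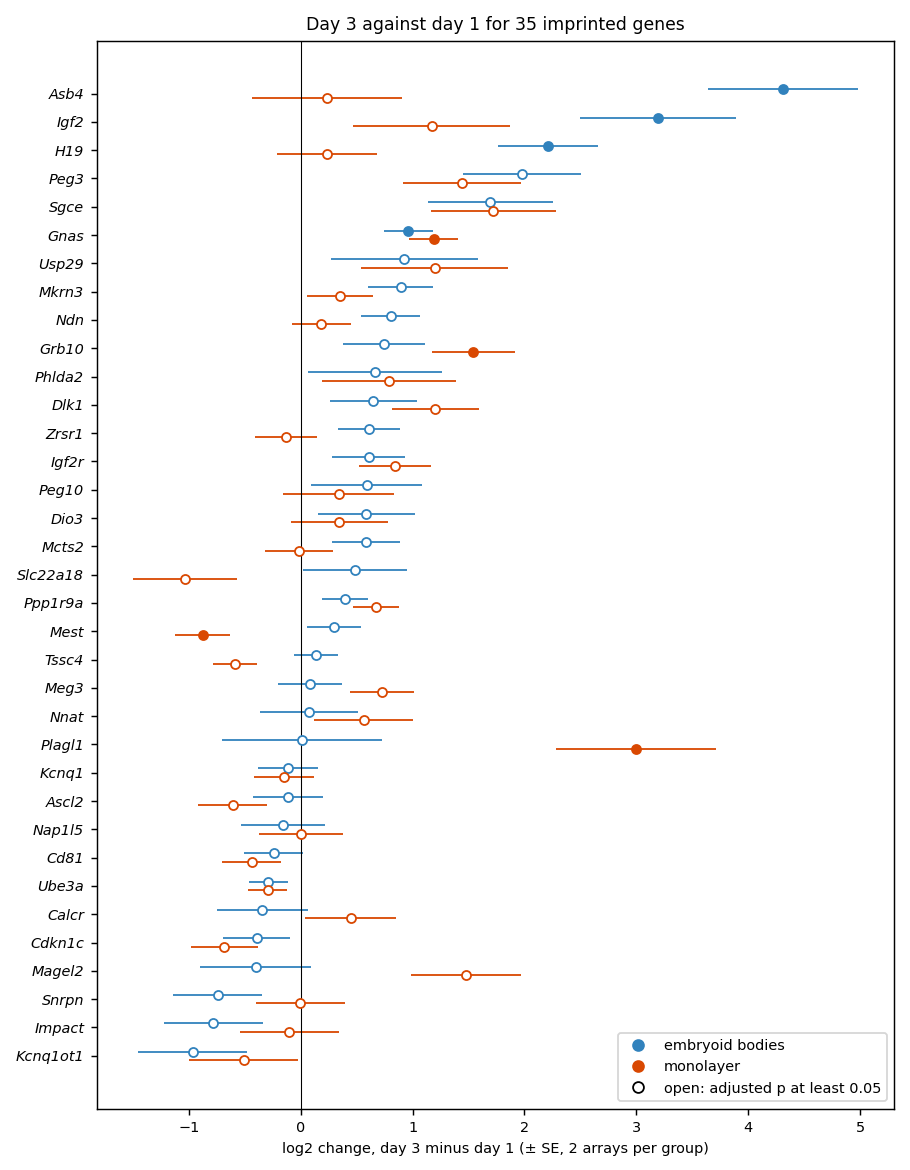
Change from day 1 to day 3 for 35 imprinted genes in embryoid bodies (blue) and monolayer (orange), as log2 change ± SE with 2 arrays per group; filled points were called. Asb4, Igf2 and H19 lie farthest right in EB, and Plagl1 lies farthest right in monolayer.

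The replicates of a group differed in several imprinted genes by 2-fold or more. Such differences were most frequent on ML day 3, where they were most frequent over all genes as well (16.1%). There 7 of 35 members were at least 2-fold higher in replicate 1 and none was 2-fold higher in replicate 2, beside 7.97% and 8.18% of all genes (16.1% in either direction). All 7 are listed as paternally expressed: they were 7 of 19 such members, whereas 0 of 15 members listed as maternally expressed differed by 2-fold. The listing is background, and which copy these cells expressed was not measured. Peg3 and Usp29 share a domain, as do Peg10 and Sgce, so the 7 are not independent. Plagl1 read 3.45 and 1.1 in the replicates, Peg3 0.68 and -1.11, Usp29 -1.52 and -3.14, Impact 5.67 and 4.09, Peg10 -1.69 and -3.23, Sgce 4.28 and 2.76, and Kcnq1ot1 -0.24 and -1.48. Counting differences of any size, 15 of 19 paternally expressed members were higher in replicate 1 (median 0.54), and 5 of 15 maternally expressed ones were (median -0.06). Of 24 other imprinted genes measured on both arrays, which were not split by parental copy, 12 were higher and 12 lower in replicate 1. Of 22 genes that set, keep or remove methylation or act on imprints, 17 were lower in replicate 1, and the summed level of the 23 tested was 164 against 282 in replicate 2. The 4 measured trophoblast markers summed to 330 against 157, 14 fibroblast markers to 158 against 112 (Tagln, 6.88 against 6.22, was the brightest, and the median difference was 0.23), and 9 pluripotency markers to 186 against 209. The part of these in the difference was not tested. The 7 genes did not all share this direction in other groups. In undifferentiated cells, on EB day 1 and on EB day 3, Plagl1 was higher in replicate 1 and Usp29 in replicate 2. On ML day 1, on the same slide, 14 of 19 paternally expressed members were higher in replicate 1 (median 0.38). Of the 15 maternally expressed ones 9 were (median 0.02). Of the 7 genes, Sgce, Peg10, Plagl1, Peg3 and Impact were higher in replicate 1 there, and Usp29 and Kcnq1ot1 in replicate 2. On EB day 1, 13 of 19 paternally and 5 of 15 maternally expressed members were higher in replicate 1 (medians 0.16 and -0.15).

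**Figure D4:**
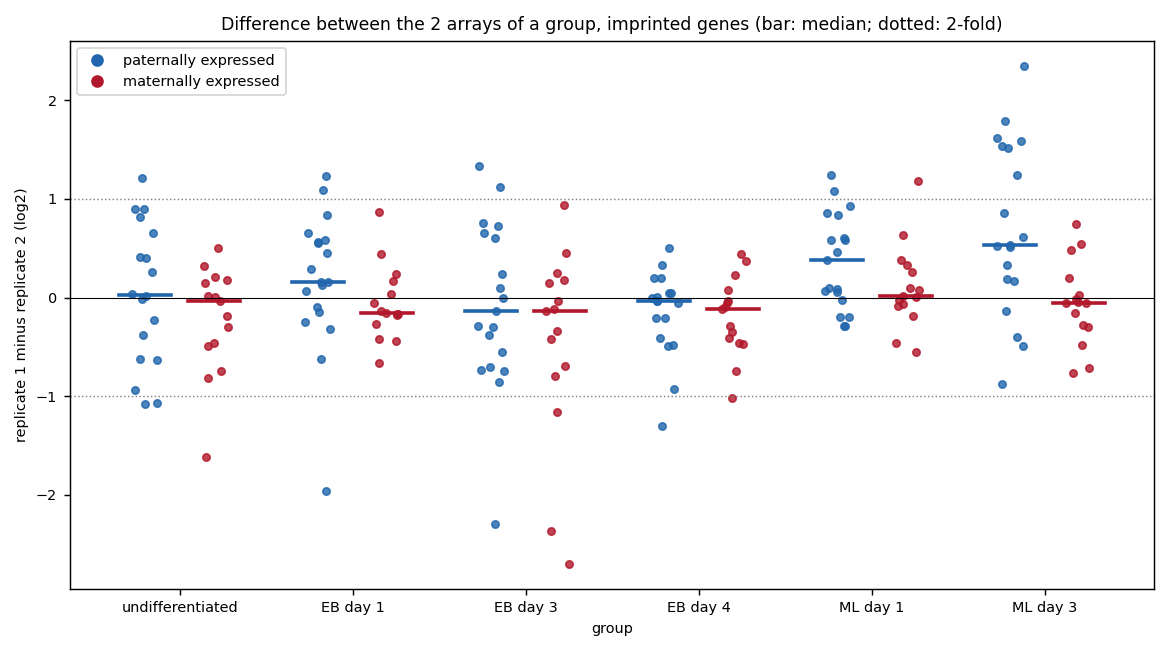
Difference between the 2 arrays of each group (y axis, log2 replicate 1 minus replicate 2) for members listed as paternally (blue) or maternally (red) expressed. Each point is a gene and bars are medians. On ML day 3, 7 blue points and no red point lie above 1.

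On EB day 3, 6 of 35 members differed by 2-fold or more, beside 5.53% of all genes (3.20% higher in replicate 1, 2.33% higher in replicate 2). Asb4 (0.13 and 2.82), Phlda2 (3.98 and 6.34), Igf2 (1.80 and 4.10) and Grb10 (2.56 and 3.72) were higher in replicate 2, and Magel2 and Plagl1 were higher in replicate 1. For all 6, replicate 2 lay between replicate 1 and the EB day 4 mean. How many of all genes 2-fold apart on EB day 3 share that order is not given here. In the same replicate 2, 9 of 11 mesoderm markers were higher and 8 of 9 pluripotency markers lower than in replicate 1. Their part in these differences was not tested. The other groups had 4 of 34 members 2-fold apart in undifferentiated cells (10.3% of all genes), 3 of 35 on EB day 1 (1.43%), 2 of 34 on EB day 4 (1.94%) and 3 of 35 on ML day 1 (1.98%).

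A list of 47 other imprinted genes, of which 29 were tested, gave 2 higher and 3 lower on EB day 1 against undifferentiated cells, 3 and 2 on ML day 1, 3 and 5 on EB day 3, and 3 and 4 on ML day 3, beside 13.3%, 18.0%, 23.7% and 23.5% of all genes called in either direction. Ampd3 read -3.75 and -3.38 in undifferentiated cells and was above background in no other group. Cobl, an actin nucleator, fell by 1.57 from EB day 1 to day 3 (SE 0.23, limma adjusted p = 0.00820). From day 1 to day 3, 3 of the 29 were called higher and 2 lower in EB (median -0.21), beside 5.41% of all genes. In monolayer 3 were higher and 5 lower (median 0.01), beside 12.4%. Pde10a, a phosphodiesterase, rose from day 1 to day 3 by 2.13 in EB and 3.37 in monolayer. It was above background on 9 of 12 arrays, and its day 1 values (-5.21 to -4.56) were its lowest, so these sizes are not exact. Peg12 rose by 1.44 in EB (limma adjusted p = 0.0477). Gab1 was lower in EB (-1.44) and monolayer (-1.83), and Ddc in monolayer (-2.64).

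Of 24 genes that set, keep or remove DNA methylation or act on imprints, 23 were tested. From day 1 to day 3, none rose and 4 fell in EB, and none rose and 9 fell in monolayer, beside 2.33% and 6.65% of all genes lower. Their medians were -0.38 and -0.95 beside -0.08 and -0.14 for all genes. The 9 pluripotency markers, which share Zfp42 with this list, had medians of -0.83 and -0.998 in the same comparisons, with 1 and 4 called lower and none higher, and their part in the result was not tested. Zfp57 fell by 1.23 in EB (SE 0.30, limma adjusted p = 0.0483), from -1.41 and -1.39 to -2.54 and -2.72. In monolayer it fell by 2.49 (SE 0.30, adjusted p = 0.00189), from -0.61 and -0.21 to -3.06 and -2.74. Dnmt3l, a cofactor of de novo DNA methyltransferases, fell by 2.40 in EB and was 2.22 lower on EB day 3 than on ML day 3 (limma change -2.22, adjusted p = 0.0114). Dppa3, which protects maternal methylation in the zygote, fell by 3.26 in monolayer and by 3.24 from EB day 3 to day 4. Tet1, which oxidises 5-methylcytosine, was lower on EB day 1 (-1.15), ML day 1 (-1.18), EB day 3 (-2.13) and ML day 3 (-2.79) than in undifferentiated cells. Dnmt3b, a de novo methyltransferase, rose by 2.11 on EB day 1 (adjusted p = 0.0371).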

How the data were processed

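Spot signals are intensity values that the authors' scanner software had already background-subtracted, per the file headers, and its per-spot flags, recorded per the file headers as 0 or 1, were used as other values. The submitters' processing notes give Agilent Feature Extraction 9.5.1.1, while the headers give 10.5.1.1, 10.7.3.1 and 10.7.1.1. The authors' deposited table of intensity values, linear and with a median of 36.6 in each of its 12 columns, correlated at 0.998 or more with the scanner files and was used only as an alternative. Log2 of the signal minus the array's 75th percentile was computed here. Between 51 and 172 outlier spots were removed from an array, and none was saturated. The filter asked for a signal well above background on both arrays of some group (26176 probes), and each gene name of the files was represented by its brightest probe (17767 genes). Limma 3.58.1 in R 4.3.3 fitted 6 group means to 12 arrays (residual df 6, prior df 3.19) and tested 10 comparisons two-sidedly, with Benjamini-Hochberg adjustment over all genes. The same fit over probes gave the values of other probes. The script was tested on simulated data.

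All 39 members are named, called or not. Genes named from the other lists were picked among up to 4 called genes a comparison with the largest change, beside stage markers. Not all of those are described, for example Tet2 (-4.12 on ML day 3 against undifferentiated cells) and Tet3 (2.11 from EB day 3 to day 4). Col1a1-type fibroblast, pluripotency, mesoderm, trophoblast and endoderm markers were summed on a linear scale. The patterns between replicates were picked with their values in view. The members and lists were chosen with earlier results of these data known. Clone numbers were not used to pair the samples in the main fit. The correlation of clone differences between groups ran from -0.15 to 0.23 over 15 pairs of groups. Such low values over all genes do not show that the samples are unpaired. The number of arrays, 2 per group, limits the precision. Promoter sequences are from RefSeq.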

Additional observations from a re-analysis of the deposited data

How the results depend on the processing

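The 60 called changes of members kept their direction in all 715 alternative values, and 498 of those kept the call. Leaving out 1 array kept 109 of 240 calls and the other settings 389 of 475, and 9 changes were called throughout. Fitting only the compared groups, which leaves fewer arrays for the spread, kept 21 of 60. It gave 6 called members for EB day 1 against undifferentiated cells, 3 for ML day 1, 4 for ML day 3, 2 for EB day 3 against day 1, and 0 for ML day 3 against day 1, EB day 4 against day 3 and EB day 3 against ML day 3. ML day 1 against undifferentiated cells gave 7 with quantile normalization, 7 with the authors' deposited values and 6 without a filter on dim probes. Without that filter EB day 3 against day 1 gave 2. With quantile normalization, and with the authors' values, the ML day 1 calls of Magel2, Snrpn, Tssc4, Mest and Ube3a were lost. With normexp background correction ML day 3 against day 1 gave 8, and members 2-fold apart between arrays numbered 2 in undifferentiated cells, 1 on EB day 1 and 1 on ML day 1. The replicate block, which fits an effect of the clone number, gave 2 for EB day 3 against ML day 3 and kept 57 of 60 calls. Leaving out 1 array at a time, the counts ranged from 2 to 11 (EB day 1), 0 to 13 (ML day 1), 6 to 10 (EB day 3) and 5 to 14 (ML day 3) against undifferentiated cells. They ranged from 0 to 4 for EB day 3 against day 1, 0 to 7 for ML day 3 against day 1, 0 to 8 for EB day 4 against day 3, 0 to 0 for EB against ML on day 1, 0 to 3 on day 3 and 0 to 1 for the difference between formats. Shares of all genes called under these settings are not given here, so the shifts cannot be set against those of all genes. The cause of these shifts was not tested. With normexp the rise of Nap1l5, near background, shrank to 0.67 on EB day 1, and its calls on EB day 3 (0.45) and ML day 3 (0.44) were lost.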
